A study of Mus musculus with 4 samples.

Results

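MiR-204 and miR-211 are a pair of related miRNAs that lie in introns of genes for TRPM ion channels, and each hairpin gives a 5p and a 3p arm. The 4 arms, mmu-miR-204-5p, mmu-miR-204-3p, mmu-miR-211-5p and mmu-miR-211-3p, were found by their names in a table of 1900 mature miRNA names, and all 4 had a count in at least 1 library. The table holds sequenced small RNA from freshly dissected olfactory bulb of C57BL/6 mice, pulled down with the RNA-binding protein Argonaute2 (AGO2) by RNA immunoprecipitation. One group, GFP-AGO2 (n = 2, replicates 1 and 3), came from mice given LV.PGK.GFP-AGO2, a vector named for PGK, a widely active promoter, and for AGO2 fused to green fluorescent protein. The other group, Control (n = 2, replicates 1 and 3), came from sham-injected mice, with no vector named, and both groups were sampled 8 weeks after injection. The series text speaks of newborn neurons, whereas the sample labels name olfactory bulb tissue. The sources used here do not give the age of the mice, the antibody, or whether each library came from another mouse. The p-values therefore reflect library-to-library spread, which could be technical alone.

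A miRNA is cut from a folded hairpin, and AGO2 keeps mainly 1 of the arms and uses bases 2 to 8 from its 5′ end, the seed, to find target RNAs. MiR-204 is known from the retinal pigment epithelium and the choroid plexus, and is also present in the brain. Its known targets include Meis2, a transcription factor that also acts in olfactory bulb neurons, and Map1lc3b, which encodes the autophagy protein LC3B. MiR-211 is best known from pigment cells, where it is transcribed with Trpm1.

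The mature sequences are shown because the 5p arms have the same seed and are almost the same miRNA, while the 3p arms differ in their seeds. They are from RefSeq (GRCm38.p6, which corresponds to mm10), 5′ to 3′, with the seed in capitals.
miR-204-5p: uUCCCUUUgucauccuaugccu
miR-211-5p: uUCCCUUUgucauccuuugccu
miR-204-3p: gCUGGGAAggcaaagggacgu
miR-211-3p: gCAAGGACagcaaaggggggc
The 5p arms were identical at 21 of 22 bases. The single difference, counted from the 5′ end of miR-204-5p, was A17U, outside the seed. The 3p arms were identical at 14 of 21 bases and had 3 of their 7 differences in the seed. No other mature miRNA of the same length among the 1603 names matched to RefSeq came within 2 mismatches of any of the 4 arms. The hairpins, with both arms in capitals, show where each arm lies.
miR-204 hairpin: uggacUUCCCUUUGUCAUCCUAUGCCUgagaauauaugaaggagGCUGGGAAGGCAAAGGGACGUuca
miR-211 hairpin: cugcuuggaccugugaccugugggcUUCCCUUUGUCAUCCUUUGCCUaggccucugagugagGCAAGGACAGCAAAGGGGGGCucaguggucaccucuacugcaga

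The miR-204 hairpin lies on the plus strand of chromosome 19 at 22750605 to 22750672 (mm10), with the 5p arm at 22750610 to 22750631 and the 3p arm at 22750649 to 22750669. In the GENCODE M21 annotation it sits inside Trpm3 (ENSMUSG00000052387.16), on the same strand, in an intron in each of the 15 coding transcripts that span it. The nearest Trpm3 exons end 759 bases upstream and begin 15961 bases downstream. The miR-211 hairpin lies on the plus strand of chromosome 7 at 64205806 to 64205911, with its arms at 64205831 to 64205852 and 64205868 to 64205888. It is likewise in an intron of the same-strand host Trpm1 (ENSMUSG00000030523.18) in all 8 spanning coding transcripts, 1212 bases past an exon and 2364 bases before the next one. No other miRNA name with a single position lay in a same-strand intron of either host, and no other annotated host gene overlapped either hairpin. Names with several positions or on the other strand were not checked. The counting command had no strand option.

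MiR-204-5p carried nearly all of the counts of the pair and was higher in GFP-AGO2 than in Control. Control replicates 1 and 3 gave 3392 and 1998 counts of it, against 15989 and 12310 for GFP-AGO2 replicates 1 and 3. Since the libraries held 673916 to 2809758 miRNA counts, levels are given as CPM, read counts relative to the TMM-scaled library size. These were 3526 and 3298 CPM in Control and 5381 and 6040 CPM in GFP-AGO2. Both GFP-AGO2 libraries were above both Control libraries, as they were for 36.8% of all 457 miRNAs tested, while for 35.2% both were below. The group levels were 3412 ± 161 CPM and 5711 ± 466 CPM (SD, n = 2 each). The log2 fold change was 0.74 (SE 0.14), a 1.67-fold rise with a 95% interval of 1.32 to 2.12, and the edgeR quasi-likelihood test gave an adjusted p = 0.0118. Of all tested miRNAs 17.3% were called higher and 17.1% lower at an adjusted p under 0.05 (34.4% together), and 74 of the 79 called rises were larger than that of miR-204-5p. In AGO2 pull-downs from tissue, the level per cell, the number of cells holding the miRNA and its recovery with AGO2 cannot be told apart. Control had no vector named and the antibody is not given, so a difference in the pull-down itself cannot be told apart from these either.

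The call rested on having both Control libraries. Without Control replicate 1 the log2 fold change was 0.84 with an edgeR adjusted p = 0.0885, and without Control replicate 3 it was 0.65 with an adjusted p = 0.136. Without GFP-AGO2 replicate 1 or 3 the values were 0.82 and 0.66 and the call was kept, but the spread then comes from the Control libraries alone. Over all alternatives the adjusted p ranged from 1.3e-06 with no filter on low counts to 0.136. Of all tested miRNAs, 47 were called higher without Control replicate 1 and 49 without Control replicate 3, in place of 79.

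**Figure D1:**
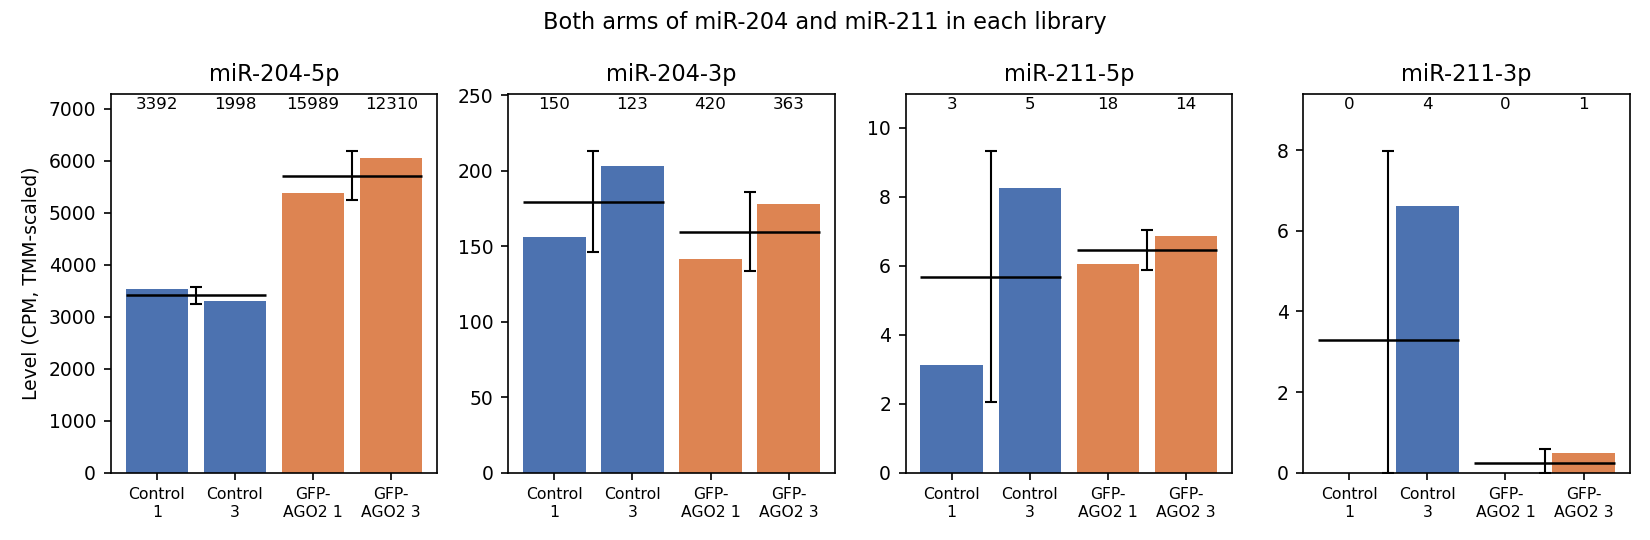
Level of each arm in each library, in CPM after TMM scaling (linear axes from 0, a different scale in each panel), with the deposited count printed above each bar; blue bars are Control, orange bars GFP-AGO2, black lines the group means and error bars ± 1 SD (n = 2), cut at 0. MiR-204-5p is the only arm whose GFP-AGO2 bars, 5381 and 6040 CPM, both stand above the Control bars, 3526 and 3298 CPM.

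As a share of all miRNA counts, miR-204-5p took 0.337% of Control replicate 1 (95% exact Clopper-Pearson interval 0.326 to 0.348) and 0.296% of Control replicate 3 (0.284 to 0.31). In GFP-AGO2 it took 0.569% of replicate 1 (0.56 to 0.578) and 0.662% of replicate 3 (0.651 to 0.674). These intervals cover counting error only, since PCR copies are counted as reads. It was the 39th and 44th most counted name in the Control libraries and the 28th in both GFP-AGO2 libraries. The shares of miR-204-5p did not overlap between groups. By CPM, 36.8% of all 457 tested miRNAs were likewise higher in both GFP-AGO2 libraries, and for shares this was not counted. The exact two-sided permutation test on the shares gave p = 0.333, the smallest value that 2 libraries against 2 allow.

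The epithelial miR-200 and miR-183 names moved the other way from this share. They took 23.9% and 23.4% of the Control counts and 2.61% and 5.10% of the GFP-AGO2 counts. All 13 tested names of 16 were called lower, where 17.1% of all tested names were. When those names were left out of the denominator, miR-204-5p took 0.443% and 0.387% in Control and 0.584% and 0.698% in GFP-AGO2. The groups remained apart, and for how many other names this held was not counted. The group means were 0.415% and 0.641%, in place of 0.317% and 0.616%. The difference was 0.226 percentage points in place of 0.299, on different denominators. The exact two-sided permutation test again gave p = 0.333, the floor of this design.

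MiR-204-3p, the minor arm of the hairpin, did not show the rise of its partner. It was counted 150 and 123 times in Control replicates 1 and 3, and 420 and 363 times in those of GFP-AGO2. The levels were 156 and 203 CPM in Control and 141 and 178 CPM in GFP-AGO2, so the groups overlapped. The log2 fold change was -0.16 (SE 0.23, 95% interval -0.74 to 0.42), with an edgeR adjusted p = 0.615. The interval leaves room for a fold between 0.597 and 1.33. The sign of this small difference depended on scaling. It was 0.06 with library totals alone, a scaling that moved the median of all tested miRNAs from -0.01 to 0.20. With no filter on low counts it was 0.08, and the median of those same miRNAs was 0.23.

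The ratio of the arms needs no scaling between libraries, because both are counted in the same library. There were 22.6 and 16.2 counts of miR-204-5p for each count of miR-204-3p in Control replicates 1 and 3. In GFP-AGO2 replicates 1 and 3 there were 38.1 and 33.9. The 5p arm thus made up 95.8% and 94.2% of the hairpin's counts in Control and 97.4% and 97.1% in GFP-AGO2. The mean log2 ratio was 4.26 ± 0.34 for Control and 5.17 ± 0.12 for GFP-AGO2 (SD, n = 2 each), a difference of 0.91 or 1.87-fold. That gap was larger than the SD of either group, and an exact two-sided permutation test reached p = 0.333, the floor of this design.

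A higher 5p share in both GFP-AGO2 libraries was not rare among hairpins. Of 104 hairpins with both arms tested and counted in every library, 27.9% had both GFP-AGO2 ratios above both Control ratios and 35.6% had both below. The median change over these hairpins was -0.05 on the log2 scale. The ratio of 20 hairpins rose by more than that of miR-204, and 45 had a larger change in either direction. By its mean ratio over the groups, miR-204 was 16th among the 104 in excess of the 5p over the 3p arm.

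**Figure D2:**
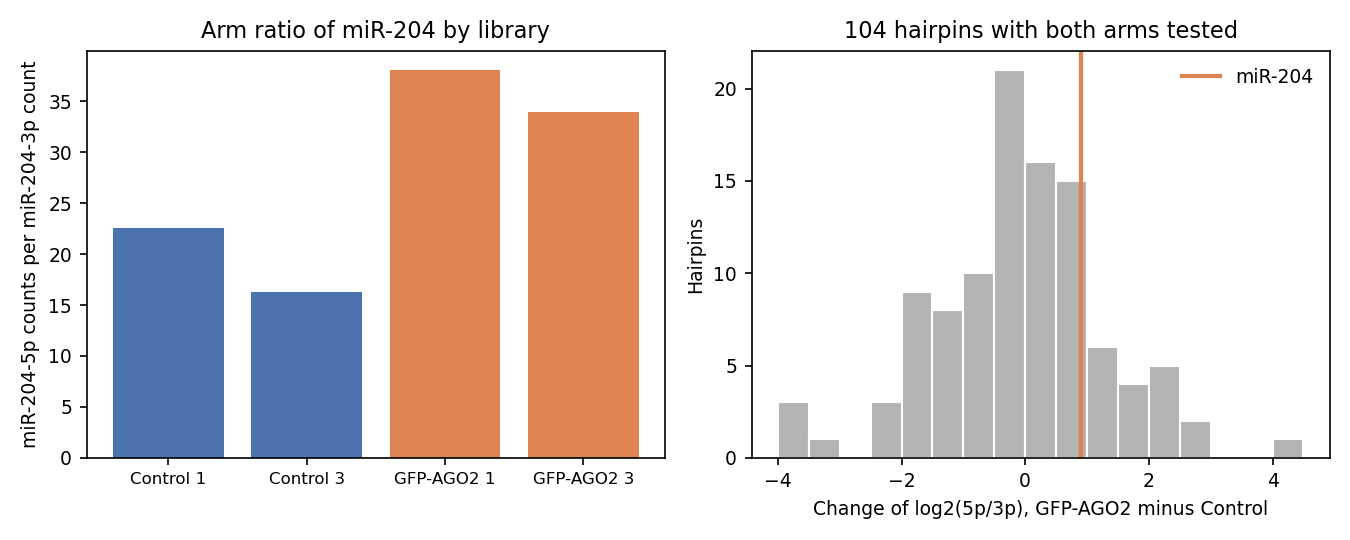
Left, counts of miR-204-5p for each count of miR-204-3p in each library (bars from 0; blue Control, orange GFP-AGO2), with 22.6 and 16.2 in Control and 38.1 and 33.9 in GFP-AGO2. Right, histogram of the change in the log2 ratio of 5p to 3p counts, GFP-AGO2 minus Control, over 104 hairpins, with miR-204 as the orange line at 0.91, well inside the distribution.

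MiR-211 was close to the limit of detection. MiR-211-5p was counted 3 and 5 times in Control replicates 1 and 3, against 18 and 14 times in GFP-AGO2 replicates 1 and 3. Its levels of 3.12 and 8.25 CPM in Control enclosed those of 6.06 and 6.87 CPM in GFP-AGO2. The log2 fold change was 0.27 (SE 0.76, 95% interval -1.66 to 2.19) with an edgeR adjusted p = 0.832, so that neither a fall to 0.316 of the Control level nor a 4.57-fold rise lay outside the interval. Without Control replicate 1 the value had the other sign, at -0.30. A difference of the size seen for miR-204-5p was not detectable at this depth.

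MiR-211-3p was counted 0 and 4 times in Control replicates 1 and 3 and 0 and 1 times in GFP-AGO2 replicates 1 and 3. It did not pass the filter on low counts and was not tested. The zeros allow a level of up to 3.12 CPM in Control replicate 1 and 1.01 CPM in GFP-AGO2 replicate 1, taking 3 counts as the limit. No fold is given for it.

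Because the 5p arms differ only by A17U, a read with an error at that base could be counted for the other name. MiR-211-5p made up 0.0884% of the counts of the 2 5p arms in Control replicate 1 (95% exact interval 0.0182 to 0.258) and 0.25% in Control replicate 3 (0.0811 to 0.582). In GFP-AGO2 replicates 1 and 3 it made up 0.112% (0.0667 to 0.178) and 0.114% (0.0621 to 0.191). The 4 intervals overlap, but whether this share differed between libraries was not tested. In Control it rested on 3 and 5 counts of miR-211-5p. How many of the miR-211-5p counts are miR-204-5p reads was not tested, and the level of miR-211-5p is uncertain for that reason.

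In order of level, miR-204-5p stood far above miR-204-3p, and miR-204-3p far above miR-211-5p, in every library. MiR-211-5p and miR-211-3p did not differ beyond their spread in Control, at 5.69 ± 3.63 and 3.30 ± 4.67 CPM (SD, n = 2). In GFP-AGO2 they lay further apart than their spread, at 6.46 ± 0.57 and 0.245 ± 0.347 CPM (SD, n = 2), on 18 and 14 counts against 0 and 1. The arms are 21 or 22 bases long, so a level per base has the same order. Adapter ligation depends on the ends of a small RNA, which limits any comparison of levels between names.

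Read by seed, miR-204-5p was the carrier of its family in these libraries. Among the 1603 names matched to RefSeq, the seed UCCCUUU was shared by 3, miR-204-5p, miR-211-5p and miR-7670-3p. MiR-7670-3p had at most 2 counts in any library. MiR-204-5p made up 99.8% to 99.9% of the counts of these 3 names. Among the matched names, the seed of miR-204-3p, CUGGGAA, was shared only with miR-7684-5p, which was listed at 0 in all 4 libraries. No other matched name had the seed of miR-211-3p, CAAGGAC.

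The 5 miRNAs whose pattern was most like that of miR-204-5p were miR-433-3p, miR-30b-5p, miR-93-5p, miR-99b-5p and miR-30d-5p, in that order. Likeness was the Euclidean distance between log2 CPM values centred on each name's mean over the 4 libraries, among names of at least 100 CPM on average. The distances ran from 0.0485 for miR-433-3p to 0.183 for miR-30d-5p, against 0.972 for miR-204-3p and 0.99 for miR-211-5p. MiR-433-3p, from an imprinted miRNA cluster on chromosome 12, had 4547 and 4243 CPM in Control and 7099 and 7600 CPM in GFP-AGO2, and a log2 fold change of 0.74 (SE 0.13). MiR-99b-5p, in an intron of Spaca6, had 9651 and 9160 CPM in Control and 16930 and 16424 CPM in GFP-AGO2. Like miR-204-5p and 36.8% of all 457 tested miRNAs, all 5 were lower in both Control libraries. Their log2 fold changes lay between 0.74 and 0.83, and without either Control library none of the 5 was called. The 5 were picked by these same values, so their shared direction, fold size and lost calls are no separate result. These likenesses over 4 libraries share the libraries' depth and scaling and are a description only.

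**Figure D3:**
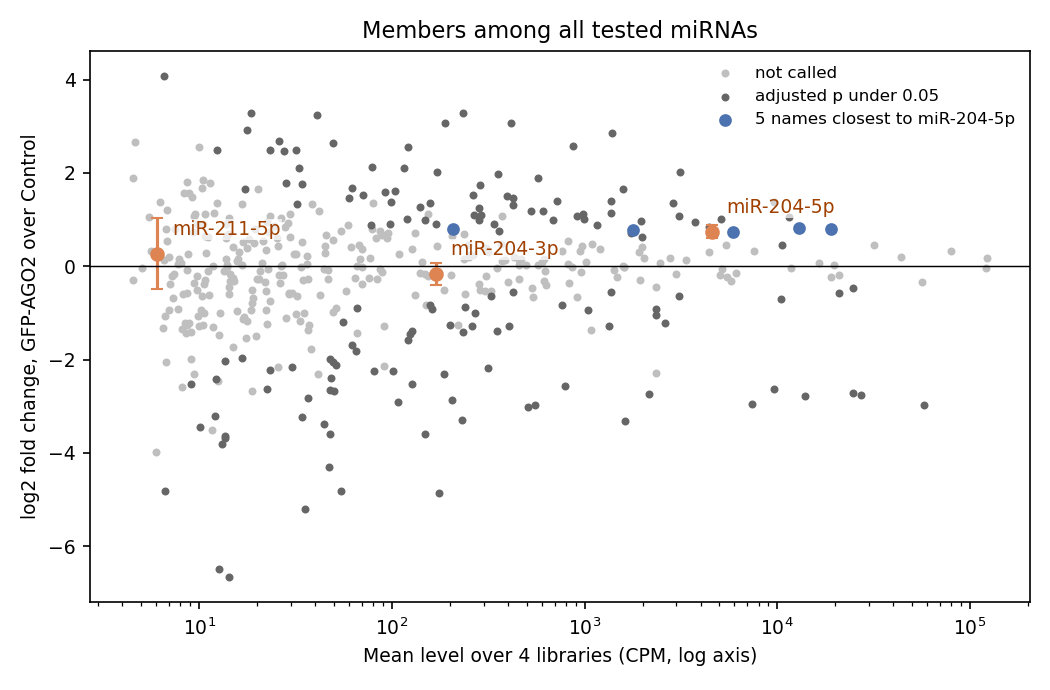
Log2 fold change of GFP-AGO2 over Control against the mean level over the 4 libraries (CPM, log axis) for the 457 tested miRNAs; dark points passed an adjusted p under 0.05, orange points are the 3 tested arms with ± 1 SE, and blue points the 5 miRNAs nearest to miR-204-5p in pattern. MiR-204-5p, at 0.74, lies among the smaller called rises, while miR-204-3p and miR-211-5p lie near 0.

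MiRNAs that lie in introns did not move together. By position, 171 tested names lay in a sense intron of a protein-coding gene, the tested arms of miR-204 and miR-211 among them. Names with several positions were not placed. Of the 171, 32 (18.7%) were called higher and 29 lower, with a median log2 fold change of -0.01, the same as over all 457. On a list of 32 intronic miRNAs whose host genes are active in brain, 31 were tested, 8 were called higher and 3 lower, with a median of 0.13, beside the 17.3% and 17.1% of all tested names called higher and lower. Without Control replicate 1 the calls were 3 higher and 1 lower, without Control replicate 3 they were 4 and 2, and without GFP-AGO2 replicates 1 and 3 they were 12 and 5, and 11 and 5. Its most abundant name, miR-26a-5p, from introns of the Ctdsp phosphatase genes and with several positions, had 70627 and 71331 CPM in Control and 92455 and 84370 CPM in GFP-AGO2 (log2 fold change 0.32, edgeR adjusted p = 0.0772). It was called higher in 4 of 10 alternatives, with total counts only (0.53), with no filter (0.56) and without GFP-AGO2 replicate 1 (0.25) or 3 (0.38). The 3 called lower, named after their values were seen, were miR-346-5p from Grid1 (-1.01), miR-140-5p from Wwp2 (-1.40) and miR-28a-5p from Lpp (-1.98).

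Marker names of other cells were read in the same libraries. Of 9 names of ciliated and choroid epithelium, a tissue known for miR-204, 2 were tested and neither was called. The more abundant, miR-34c-5p, had 157 and 99.0 CPM in Control and 28.9 and 77.5 CPM in GFP-AGO2, with a log2 fold change of -1.29 (edgeR adjusted p = 0.119). It was called lower with no filter (-1.06) and without GFP-AGO2 replicate 3 (-2.15), and had -0.73 without GFP-AGO2 replicate 1. The other tested name, miR-34b-3p, named after its values were seen, went the other way (log2 fold change 0.91, edgeR adjusted p = 0.317). It had 6.24 and 8.25 CPM in Control and 9.09 and 18.2 CPM in GFP-AGO2. The list took 0.0120% to 0.0163% of Control counts and 0.00498% to 0.0118% of GFP-AGO2 counts, and 3 of its names were listed at 0. Of 20 vessel, blood and immune names, 16 were among the counted names, 3 of them at 0 in every library, and 7 were tested. Of these 7, 4 fell and none rose, against 17.1% and 17.3% of all tested names. The list took 0.367% to 0.498% of Control counts and 0.0370% to 0.172% of GFP-AGO2 counts. Its most abundant name was miR-143-3p of smooth muscle (log2 fold change -2.29, edgeR adjusted p = 0.0637). It was called lower in 5 of 11 alternatives, and leaving out GFP-AGO2 replicate 1 or 3 moved its value to -1.56 or -3.87. Of 16 neuron-enriched names, 15 were tested, 4 rose and 1 fell, with a median of 0.18, where 17.3% of all tested names rose and 17.1% fell. MiR-124-3p, the most abundant of them and a defining marker of neurons, was not called (log2 fold change -0.15, edgeR adjusted p = 0.555). It was present at 5618 and 7280 CPM in Control and 6309 and 5277 CPM in GFP-AGO2. Without Control replicate 1 or 3, 1 vessel, blood or immune name was called lower each time, and 0 and 2 neuron-enriched names were called higher. The part of these other cells in the values of miR-204-5p was not tested.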

How the data were processed

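The 4 small RNA libraries were deposited as raw counts for each mature miRNA name, which the authors obtained by running featureCounts (v1.4.6-p1) with primary alignments only, against miRBase mouse features in mm10, per the file headers. Cutadapt and STAR were used, per the submitters' processing notes, which name no versions. Columns were tied to samples by title. In R 4.3.3, edgeR 4.0.16 was used for quasi-likelihood F tests over all 457 names that passed filterByExpr at a minimum count of 10, with TMM factors and Benjamini-Hochberg adjustment. Tests were two-sided, with a change called at an adjusted p under 0.05. The script was tested on simulated data. DESeq2 1.42.0, other scalings and filters, a replicate block and leaving out each library were alternatives. Arm ratios and shares were compared by exact permutation tests in scipy 1.17.1. Sequences were matched to RefSeq by name and position, and positions to GENCODE M21.

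The miRNAs named were the 4 arms, names with the same seed, the 5 nearest in pattern and the most abundant tested name of each list; others are said to be named later. The members and lists were chosen with earlier results of these data known.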

Additional observations from a re-analysis of the deposited data

How the results depend on the processing

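Leaving out each library in turn gave miR-204-5p log2 fold changes of 0.65 to 0.84, miR-204-3p -0.34 to -0.00471, miR-211-5p -0.30 to 0.99, miR-124-3p -0.29 to 0.0093, an arm ratio difference of 0.67 to 1.15 (log2) and a miR-204-5p share difference of 0.252 to 0.346 percentage points. Over all miRNAs it gave 47 to 94 calls higher and 43 to 106 lower. MiR-204-5p kept its call in 9 of 11 alternatives, the exceptions being the fits without either Control library. With total counts only and with no filter, the log2 fold change of miR-204-5p was larger, at 0.96 and 0.98. The median of the 457 miRNAs was 0.20 and 0.23 in these fits, against -0.01 in the main fit. There miR-204-3p (0.058 and 0.077) and miR-124-3p (0.064 and 0.091) changed sign. So did miR-124-3p without Control replicate 3 (0.0093) and miR-211-5p without Control replicate 1 (-0.30). None of these sign changes was a call, and their cause was not tested. Without the miR-200 and miR-183 names in the denominator the share difference was 0.226. With the filter at 50 counts miR-211-5p was not tested.

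With the replicate number as a block, miR-204-5p had 0.74, miR-204-3p -0.17 and miR-211-5p 0.31, with the same calls, and over all miRNAs 79 were called higher and 85 lower. Same-numbered libraries did not deviate together (correlation -0.06 across 457 names), so the number is not taken as a pairing. Depth limits miR-211, whose arms had 40 and 5 counts over all libraries.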
